A study of Homo sapiens with 28 samples.

Results

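The collagen genes were described across 4 human liver tumour cell lines, each measured as a culture and as a tumour grown in a chick egg. Members were the rows of the expression table whose symbol reads COL, a number, A and a number. This gave 46 of 18961 rows, of which 44 are collagen chains. The other matches are COL4A3BP, the ceramide transfer protein, and COL4A2-AS2, an antisense RNA listed at 0 in all 28 libraries. 28 of the 44 chains passed the filter on low values and were tested, and 16 did not.

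Hep3B, HuH7 and PLC/PRF/5 are hepatoma lines, and HepG2 was derived from a hepatoblastoma. Each line gave 3 libraries from cultures (in vitro) and 4 from tumours (in ovo), 28 in all. Cells were laid on the chorioallantoic membrane, the vessel-rich membrane under the shell, in white leghorn eggs on embryonic day 9, and tumours were removed on day 18. No line carries an engineered allele or a drug treatment in the labels, and a grafted tumour can hold chick cells that the cultures lack. Expression was read with DriverMap, which amplifies 1 short stretch per human gene from total RNA. RNA was purified with a mini kit from cultures and a midi kit from tumours, so kit and condition cannot be told apart. Whether replicates are separate cultures or eggs is not stated in the labels, so each p-value reflects the scatter among these samples, which may be technical.

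Collagens are the main fibrous proteins outside cells. In each molecule 3 chains wind into a helix that needs a glycine at every turn, so the chains repeat the pattern Gly-X-Y. Fibrillar collagens (types I, II, III, V, XI, XXIV and XXVII) build the rope-like fibres of scar, bone and cartilage, and type IV builds the sheet of the basement membrane. Fibril-associated collagens sit on fibres, type VI forms beaded filaments, and the multiplexins XV and XVIII lie at basement membranes. In the liver, type I and III fibres of scar come mainly from stellate cells and fibroblasts, while hepatocytes are known as a main source of type XVIII.

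The sequence that each value counts is the amplicon. All 46 amplicons matched a GENCODE 29 transcript exactly, none matched a second gene, and 45 lie in coding sequence. 14 lie within 1 exon and 32 span 2 or more. They are 84 to 268 bases long. The median GC content was 60.9% in these rows and 55.1% over all amplicons of the table. 21 chains were read at a stretch holding a run of at least 4 glycine codons spaced every 3 codons, the helix repeat, and 23 were read at a stretch with a shorter run or none. The amplicons below belong to a selection of chains with called differences, not to all of the largest. They are written 5′ to 3′ along the transcript, with the glycine codons of the longest such run in capitals. COL1A1, COL4A3 and COL5A2 were read inside the helix, and COL2A1 and COL6A1 outside it. The COL15A1 amplicon holds a run of 2 such codons at its end.
COL1A1 (chr17:50189274-50189504, GRCh38, minus strand, coding exons 39 to 40): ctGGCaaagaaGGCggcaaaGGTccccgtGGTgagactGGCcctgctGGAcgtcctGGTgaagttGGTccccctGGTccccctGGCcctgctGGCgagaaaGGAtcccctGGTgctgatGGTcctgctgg
COL5A2 (chr2:189045889-189050615, minus strand, coding exons 43 to 46): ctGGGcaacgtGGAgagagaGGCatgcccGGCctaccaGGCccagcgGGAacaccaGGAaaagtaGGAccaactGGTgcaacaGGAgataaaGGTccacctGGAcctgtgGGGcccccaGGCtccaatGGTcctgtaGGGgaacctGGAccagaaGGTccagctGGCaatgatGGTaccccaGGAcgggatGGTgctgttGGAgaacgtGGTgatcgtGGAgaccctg
COL4A3 (chr2:227298784-227304036, plus strand, coding exons 43 to 46): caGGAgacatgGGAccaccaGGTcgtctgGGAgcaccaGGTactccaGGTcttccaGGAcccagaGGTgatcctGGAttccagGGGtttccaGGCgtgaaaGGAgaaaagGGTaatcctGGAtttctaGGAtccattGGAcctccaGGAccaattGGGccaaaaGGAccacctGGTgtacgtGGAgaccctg
COL2A1 (chr12:47974093-47974206, minus strand, coding, exon 52): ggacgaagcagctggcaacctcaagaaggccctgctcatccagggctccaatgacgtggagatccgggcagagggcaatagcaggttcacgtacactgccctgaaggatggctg
COL6A1 (chr21:46003854-46003981, plus strand, coding, exon 35): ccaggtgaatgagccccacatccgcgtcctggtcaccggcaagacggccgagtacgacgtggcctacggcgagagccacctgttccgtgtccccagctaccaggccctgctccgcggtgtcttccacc
COL15A1 (chr9:99022149-99024885, plus strand, coding exons 13 to 15): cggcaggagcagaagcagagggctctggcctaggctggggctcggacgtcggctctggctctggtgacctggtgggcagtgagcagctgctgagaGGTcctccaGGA

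Recovered depth was 6205368 to 8662998 reads per library in vitro and 6085750 to 15086465 in ovo, so that 3 reads were worth 0.199 to 0.493 CPM (reads scaled to a common library total). Levels below are CPM after TMM scaling, where 3 reads were worth 0.251 to 0.806 CPM. A level can be compared between libraries but not between genes, since each gene has its own amplicon. Intervals and floors reflect counting error alone, as reads amplified by PCR without molecular identifiers are not independent molecules. The in ovo libraries spread more than the cultures, and those numbered 3 stood apart: they held relatively more of the GC-rich amplicons in every line, with a rank correlation of their deviation with GC of 0.34 to 0.43 across genes. Olfactory receptor amplicons, 391 genes of the nose, were read at 2.05% to 7.67% of their number in vitro and 5.63% to 51.7% in ovo. Differences in ovo followed amplicon GC across genes, with rank correlations of 0.276 (HepG2), 0.459 (Hep3B), 0.506 (HuH7) and 0.389 (PLC/PRF/5). Genes are not independent replicates, and these correlations describe the libraries only.

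In ovo libraries also read genes specific to another line, at a small share of that line's level. These genes were picked for a level at or under 0.2 CPM in the cultures of the receiving line. RNA from another line and expression switched on in ovo therefore cannot be told apart here. In the Hep3B tumours, 3 genes specific to HuH7 and at or under 0.2 CPM in the Hep3B cultures had a median of 0.259% to 2.64% of their HuH7 level in ovo. For 6 genes specific to HepG2 the median was 0.306% to 0.994% of their HepG2 level. The Hep3B subtractions below rest on these few genes and are uncertain. In the PLC/PRF/5 tumours, 17 genes specific to HepG2 stood at 0.654% to 1.19% of their HepG2 level. Each difference that subtracting these shares ends or moves by over 1.5 times is given with and without the subtraction, an alternative chosen after the data were seen. Hepatocyte markers checked the label of the lines: the summed level of 12 genes was 14790 to 95740 CPM in the cultures of HepG2, Hep3B and HuH7 and 22.4 to 29.2 CPM in those of PLC/PRF/5, where ALB and FOXA2 were at 0. In the PLC/PRF/5 tumours that sum was 779 to 2054 CPM, beside the share of HepG2 genes given above.

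In culture the lines carried different collagens. 27 of the 28 tested chains differed among the 4 lines in vitro (limma F test, adjusted p under 0.05), against 71.4% of all 13100 genes tested. COL22A1 was the chain that did not pass (adjusted p = 0.0773). PLC/PRF/5 alone read COL15A1, COL5A1 and COL8A1, with 0 reads in the 21 libraries of the other lines, and it had the highest levels of COL4A1, COL4A2, COL7A1, COL12A1 and COL17A1. COL14A1, a fibril-associated chain, was at 284 ± 25.4 CPM (SD, n = 3) in HuH7 cultures and at most 0.331 CPM in the cultures of the other lines. COL2A1, the chain of cartilage fibres, was at 208 ± 11.9 CPM in HepG2 cultures and 62.8 ± 1.44 in those of Hep3B, against 2.78 ± 0.34 in HuH7 and 0.103 ± 0.012 in PLC/PRF/5. COL6A1, a chain of the beaded filaments, was at 103 ± 8.17 CPM in HepG2, 79.8 ± 3.83 in PLC/PRF/5, 58.9 ± 4.60 in HuH7 and 0.944 ± 0.148 in Hep3B.

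**Figure D1:**
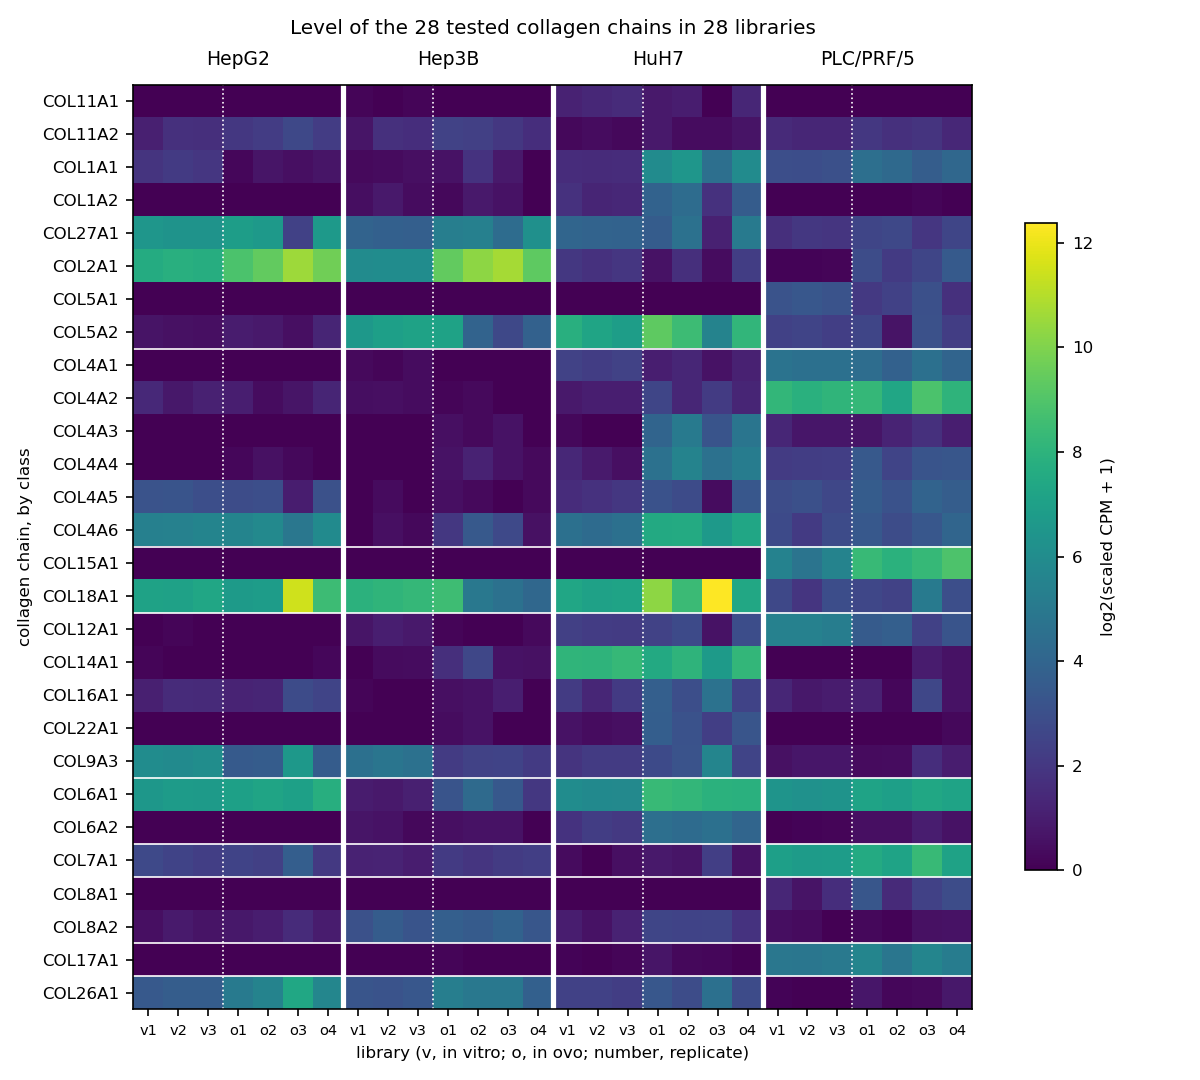
Each cell gives log2(scaled CPM + 1) of 1 of the 28 tested chains (rows, by class) in 1 of the 28 libraries (columns, 3 in vitro and 4 in ovo per line). COL15A1, COL5A1 and COL8A1 are dark in every HepG2, Hep3B and HuH7 library and lit in PLC/PRF/5, and COL18A1 is brightest in HepG2 and HuH7 in ovo replicate 3.

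The change from culture to tumour also differed by line. Of the 28 tested chains, limma called 3 higher and 2 lower in HepG2 tumours, where 12.6% of all genes were called higher and 12.4% lower. In Hep3B it called 8 higher and 3 lower, against 25.3% and 26.7% of all genes. In HuH7 it called 13 higher and 2 lower, against 23.9% and 19.5%. In PLC/PRF/5 it called 7 higher and 2 lower, against 11.7% and 5.62%. The median log2 difference of the tested chains was 0 for HepG2, 0.21 for Hep3B, 0.83 for HuH7 and 0.40 for PLC/PRF/5, beside 0, -0.03, 0.02 and 0.07 for all genes. Without Hep3B in vitro replicate 1 the Hep3B count of higher chains was 4, and without PLC/PRF/5 in vitro replicate 1, 2 or 3 the PLC/PRF/5 count was 3, 4 and 4. Scaling by total counts alone, which moves the median of all Hep3B genes to -0.74, left 3 chains higher and 5 lower in Hep3B and split all Hep3B calls into 1205 higher and 6820 lower, instead of 3309 and 3499. Removing the trends with GC content and length left 3 chains higher in PLC/PRF/5. That removal also gives a difference to chains without reads: COL15A1, with 0 reads in all Hep3B and HuH7 libraries, became -0.88 (adjusted p = 0.0147) and -0.85 (adjusted p = 0.0202). Calls that it adds or ends for chains under 5 CPM in both groups are therefore not given.

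Averaged over the lines, 16 chains were higher in ovo and 3 lower, against 34.4% and 31.9% of all genes. The difference itself varied among lines for 17 chains (line by condition interaction), against 41.7% of all genes. COL2A1, COL4A4, COL6A1 and COL26A1 were called higher in 3 lines each, 4 of 28 chains against 7.73% of all genes. With the shares of other lines subtracted, COL2A1 in PLC/PRF/5 (-0.14, adjusted p = 0.875) and COL4A4 in Hep3B (0.30, adjusted p = 0.305) were not called, which leaves these chains higher in 2 lines each. COL1A1 and COL9A3 were called in opposite directions in different lines, 2 of 28 against 8.72%. In HepG2 4 chains lay above all cultures in every tumour and 1 below, against 18.8% and 20.4% of all genes. In Hep3B 8 lay above and 4 below, against 27.5% and 28.2%. In HuH7 15 lay above and 1 below, against 25.8% and 22.6%, and in PLC/PRF/5 10 above and 2 below, against 23.4% and 16.3%. In bulk RNA of this kind, fewer cells of a type and less RNA per cell cannot be told apart.

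**Figure D2:**
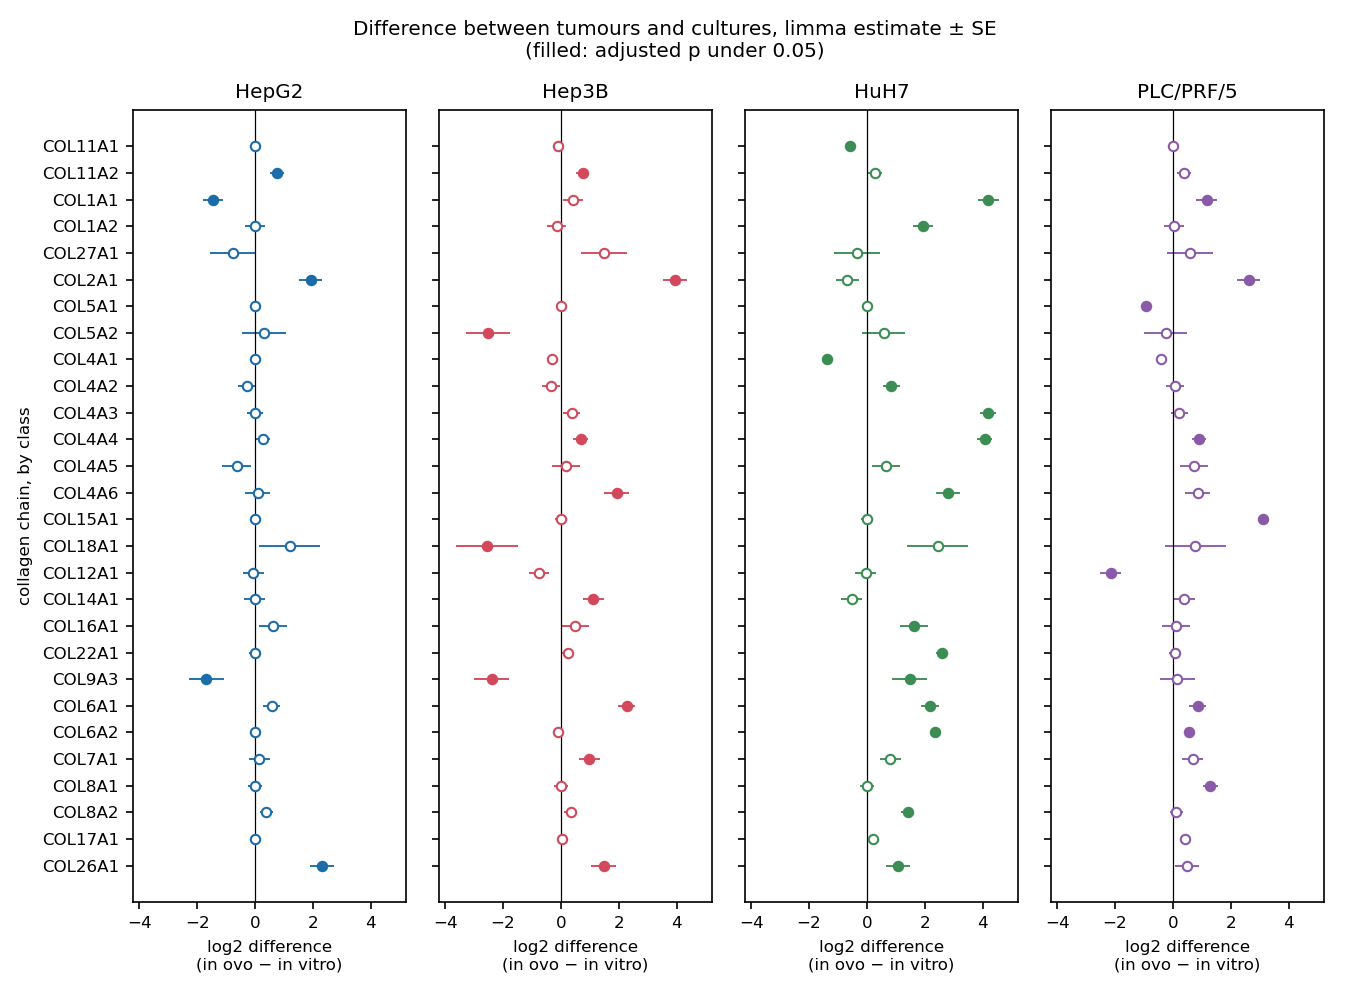
Points give the log2 difference in ovo minus in vitro on the log2(scaled CPM + 1) scale for each tested chain (rows, by class) in each line (panels), bars give its SE, and filled points passed an adjusted p of 0.05. HuH7 has the most filled points to the right of 0, with 13, and HepG2 has 3.

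Fibrillar chains came first. COL1A1, the main chain of scar and bone fibres, rose in HuH7 tumours 30.5-fold, rose less in PLC/PRF/5 and fell in HepG2. In HuH7 it stood at 2.00, 1.84 and 1.96 CPM in the cultures and 61.6, 90.6, 22.0 and 62.2 CPM in the tumours, with no overlap. The log2 difference on the log2(CPM + 1) scale, used for every difference below, was 4.19 ± 0.36 (SE, adjusted p = 1.73e-09). PLC/PRF/5 cultures held 6.79, 6.47 and 7.13 CPM and the tumours 21.7, 17.7, 11.7 and 16.4 CPM, a difference of 1.17 (adjusted p = 0.0236). That call was lost without any 1 of the PLC/PRF/5 cultures or in ovo replicate 1, and it was lost with the GC and length trends removed (0.82, adjusted p = 0.18). In HepG2 the cultures held 2.66, 3.31 and 2.87 CPM and the tumours 0.150, 0.646, 0.408 and 0.619 CPM, all below the cultures (-1.45, adjusted p = 0.00349). The interaction for COL1A1 had an adjusted p of 2.38e-08.

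COL1A2, the partner chain of type I collagen, rose in HuH7 with COL1A1 and was nearly unread elsewhere. It went from 2.40, 1.41 and 1.63 CPM in HuH7 cultures to 13.8, 19.6, 2.40 and 11.0 CPM in the tumours (1.92 ± 0.34, adjusted p = 9.57e-05). In ovo replicate 3 reached only the level of the highest culture. COL1A2 had 0 reads in every HepG2 library and 1 read in all PLC/PRF/5 libraries, so the COL1A1 of these lines was read without its usual partner. COL3A1, which forms fibres with type I in scar, did not pass the filter in any line and reached at most 0.644 CPM in 1 library.

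COL2A1, the fibrillar chain of cartilage, rose in HepG2 and Hep3B and was not called in HuH7. HepG2 cultures held 196, 220 and 208 CPM and the tumours 467, 669, 1519 and 819 CPM, a ratio of means of 4.18 (log2 difference 1.92 ± 0.40, adjusted p = 0.000808). Hep3B cultures held 61.3, 63.0 and 64.2 CPM and the tumours 685, 1236, 1681 and 634 CPM, a ratio of 16.9 (3.94 ± 0.40, adjusted p = 2.92e-08). In both lines every tumour lay above every culture. In HuH7 the means were 2.78 ± 0.34 and 1.71 ± 1.63 CPM (n = 3 and 4, adjusted p = 0.177). With the shares of other lines subtracted it was called lower there (-0.85, adjusted p = 0.0435).

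Of 8 chondrocyte and bone markers, 2 were tested, and in HepG2 and Hep3B 1 of them rose and 1 fell. BGLAP, the bone protein osteocalcin, rose in HepG2 from 9.48 ± 1.54 to 26.8 ± 3.03 CPM (1.41, adjusted p = 0.000454) and in Hep3B from 8.82 ± 1.32 to 36.0 ± 11.7 CPM (1.86, adjusted p = 8.29e-06). MATN3, a cartilage matrix protein, fell in HepG2 from 322 to 53.1 CPM (-2.64, adjusted p = 3.70e-06) and in Hep3B from 6.26 to 1.46 CPM (-1.69, adjusted p = 0.000411). The summed level of the 8 was 319.9 to 349 CPM in vitro and 65.5 to 96.4 in ovo in HepG2, and 13.7 to 15.9 and 23.4 to 49.2 CPM in Hep3B. CNMD and IBSP were at 0 in both lines, and ACAN, the main cartilage proteoglycan, reached at most 0.256 CPM. The part of such cells in the COL2A1 difference was not tested.

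In PLC/PRF/5 COL2A1 was called higher, and the call was lost with the shares of other lines' genes subtracted. The cultures held 3 reads in all and the tumours 6.33, 3.26, 4.98 and 10.3 CPM, a ratio of 59 (95% counting interval 19.9 to 288) and a log2 difference of 2.62 (adjusted p = 3.65e-05). The shares of the other lines' genes measured in the same 4 tumours would alone give 7.33, 6.15, 7.2 and 10.8 CPM. With the shares subtracted the difference was -0.14 (adjusted p = 0.875). Whether the COL2A1 reads came from other lines or from the tumour cells was not tested.

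Of the chains that accompany types I and II in fibres, COL5A2 fell in Hep3B. The cultures held 96.4, 127 and 138 CPM and the tumours 137, 14.4, 5.38 and 13.4 CPM (-2.51 ± 0.76, adjusted p = 0.00778). In ovo replicate 1 stayed at the level of the cultures, so the groups overlap, and without it the difference was -3.42 (adjusted p = 9.45e-05). With the shares of other lines subtracted, the Hep3B difference was -3.50 (adjusted p = 0.00412). The call was not made by edgeR (-1.47, adjusted p = 0.102) or DESeq2 (-1.54, adjusted p = 0.0794) on the recovered reads. In HuH7 COL5A2 was at 162 ± 52.8 CPM in vitro and 332 ± 243 in ovo and was not called (adjusted p = 0.569). COL5A1, its partner in type V, was read only in PLC/PRF/5, where it fell from 7.86, 9.13 and 8.06 CPM to 3.12, 4.18, 7.13 and 2.27 CPM (-0.94, adjusted p = 0.000354); edgeR (adjusted p = 0.145) and DESeq2 (adjusted p = 0.149) did not call it.

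The type XI chains, which lie inside cartilage fibres, were low. COL11A2 was at 1.88 ± 0.66 CPM in vitro and 3.90 ± 1.10 in ovo in HepG2 (0.77, adjusted p = 0.0198) and at 1.69 ± 0.90 and 3.40 ± 1.07 in Hep3B (0.74, adjusted p = 0.0123). Each call was lost without in vitro replicate 1 of its line (adjusted p = 0.163 and 0.162). The HepG2 call was lost without in ovo replicate 3 as well. COL11A1 fell in HuH7 from 1.59 ± 0.28 to 0.817 ± 0.633 CPM (-0.58, adjusted p = 0.00906), with overlap, and the call was lost by edgeR and by DESeq2. COL27A1 was not called in any line by limma. Hep3B tumours all lay above the cultures for it, at 37.6, 41.5, 19.9 and 72.0 CPM against 14.2, 12.7 and 12.4 CPM (1.5 ± 0.79, adjusted p = 0.116). Its level in the in ovo libraries numbered 3 was the lowest of the group in all 4 lines, at 4.28 CPM in HepG2 where the other tumours held 97.8 to 116 CPM. Without those 4 libraries COL27A1 was called higher in Hep3B (1.80, adjusted p = 4.45e-06) and in PLC/PRF/5 (0.77, adjusted p = 0.0281). COL5A3 and COL24A1 did not pass the filter and reached 5.89 and 3.75 CPM at most.

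**Figure D3:**
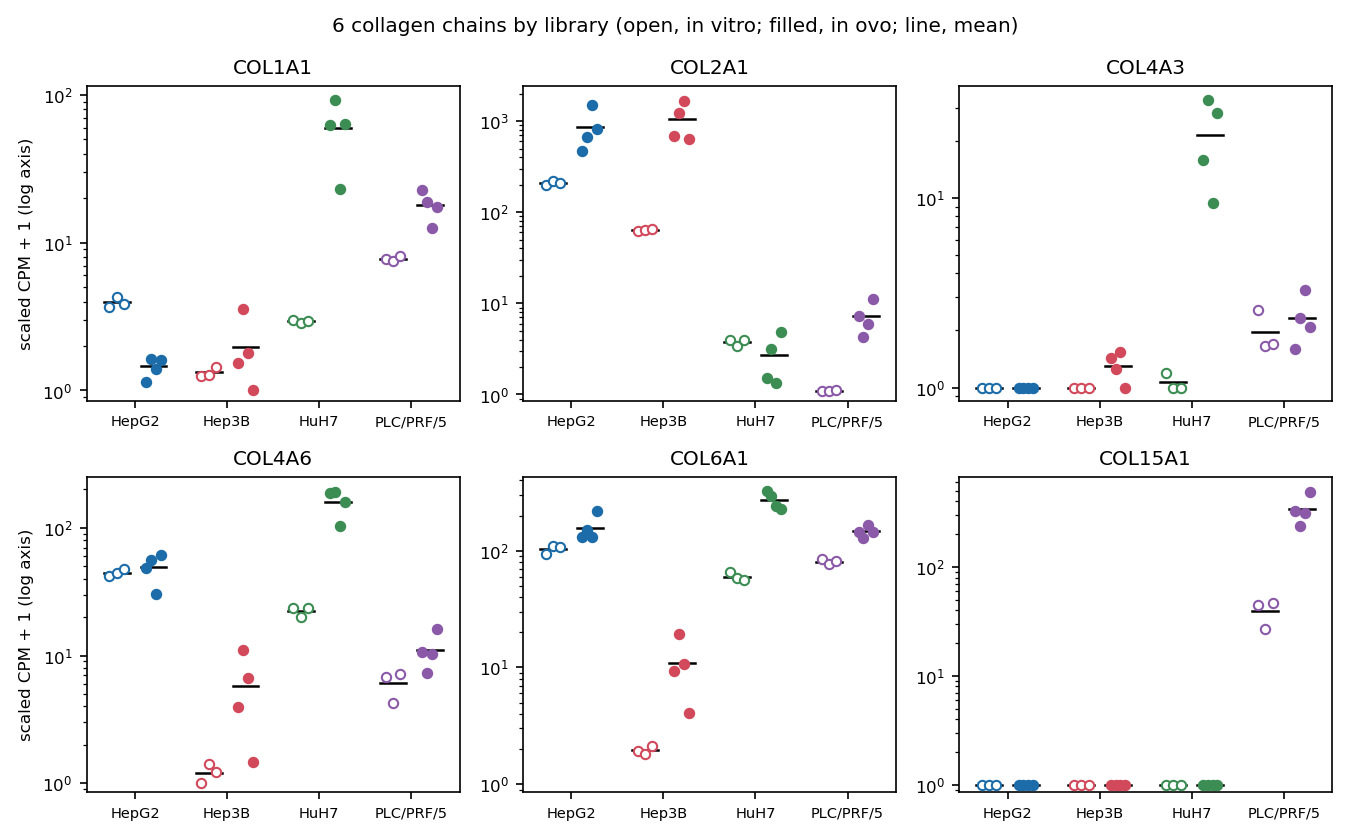
Each point is 1 library, as scaled CPM + 1 on a log axis, for 6 chains in the 4 lines; open points are the 3 cultures, filled points the 4 tumours and black lines their means. COL1A1, COL4A3, COL4A6 and COL6A1 tumours of HuH7 lie above all HuH7 cultures, COL2A1 tumours of HepG2 and Hep3B lie above their cultures, and COL15A1 is above 0 in PLC/PRF/5 only.

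Of the type IV chains of the basement membrane, limma called 4 of 6 higher and 1 lower in HuH7, against 23.9% and 19.5% of all genes. It called 2 of 6 higher in Hep3B, against 25.3%, and 1 of 6 in PLC/PRF/5, against 11.7%, both near the share of all genes. In HepG2 limma called 0 of 6, 0 passed an unadjusted p of 0.05, edgeR and limma-voom called 1 higher each, and DESeq2 called 0. The 6 genes lie as head-to-head pairs that share a start region, with 127 bases between the start sites of COL4A1 and COL4A2, 419 bases for COL4A3 and COL4A4 and 380 bases for COL4A5 and COL4A6 (GRCh38.p14). The molecule of most basement membranes is built from the chains of COL4A1 and COL4A2, and that of the kidney filter from those of COL4A3, COL4A4 and COL4A5. Both members of the COL4A3 and COL4A4 pair rose in HuH7, and their start regions are printed below, 250 bases before to 50 after each start (RefSeq, GRCh38.p14), with GGGCGG or its complement CCGCCC in capitals. Both strands were searched. GGGCGG is held by 45.0% of 35116 promoters of this length, the letters CCAAT by 34.6% and the letters TATAAA by 11.5%; these motifs do not overlap each other. COL4A3 holds 2 copies of GGGCGG and COL4A4 0, and neither holds CCAAT or TATAAA. These letter matches describe the printed windows only.
COL4A3 (chr2:227164374-227164673, plus strand): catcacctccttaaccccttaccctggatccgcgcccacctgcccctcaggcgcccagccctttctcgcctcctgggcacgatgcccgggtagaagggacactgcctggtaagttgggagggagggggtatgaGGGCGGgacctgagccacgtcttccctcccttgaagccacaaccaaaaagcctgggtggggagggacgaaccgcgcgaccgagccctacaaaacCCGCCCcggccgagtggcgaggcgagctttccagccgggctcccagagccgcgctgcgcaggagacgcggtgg
COL4A4 (chr2:227164156-227164455, minus strand): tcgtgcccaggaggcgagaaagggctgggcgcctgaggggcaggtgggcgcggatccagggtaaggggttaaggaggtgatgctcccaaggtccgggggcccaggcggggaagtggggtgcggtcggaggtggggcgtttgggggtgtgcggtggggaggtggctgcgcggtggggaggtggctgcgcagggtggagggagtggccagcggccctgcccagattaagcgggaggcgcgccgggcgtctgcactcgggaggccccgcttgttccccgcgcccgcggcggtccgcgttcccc

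COL4A3 and COL4A4 were close to unread in HuH7 cultures and read in every HuH7 tumour. COL4A3 had 2 reads in the 3 cultures together and stood at 14.9, 31.8, 8.41 and 27.1 CPM in the tumours. The ratio from reads was 319 (95% counting interval 88.0 to 2638), and the log2 difference was 4.18 ± 0.29 (adjusted p = 4.23e-11). COL4A4 went from 1.60, 0.868 and 0.435 CPM to 23.9, 45.8, 23.8 and 35.2 CPM (4.07 ± 0.25, adjusted p = 7.12e-12). All tumours lay above all cultures for both chains. COL4A4 in PLC/PRF/5 was at 3.65 ± 0.24 CPM in vitro and 7.96 ± 2.25 in ovo (0.91, adjusted p = 0.0129), a call lost without in vitro replicate 1 (adjusted p = 0.0512) and with the GC and length trends removed (0.62, adjusted p = 0.154). COL4A3 in PLC/PRF/5 was at 0.973 ± 0.502 and 1.32 ± 0.70 CPM and was not called.

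In Hep3B, COL4A4 had 0 reads in the cultures and 13 in the tumours, at 0.530, 1.28, 0.537 and 0.234 CPM (0.68, adjusted p = 0.0259), at least 4.90-fold higher against a floor of 3 reads over the culture group. The share of other lines' genes would alone give 0.369, 0.852, 0.510 and 0.0842 CPM, and with it subtracted the difference was 0.30 (adjusted p = 0.305). The call was also lost without Hep3B in vitro replicate 1, 2 or 3 or in ovo replicate 2.

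COL4A6 rose in HuH7 and in Hep3B. HuH7 cultures held 22.6, 19.0 and 22.8 CPM and the tumours 185, 189, 102 and 158 CPM (2.79 ± 0.43, adjusted p = 1.43e-05), without overlap. Hep3B cultures held 0, 0.406 and 0.221 CPM and the tumours 2.97, 10, 5.64 and 0.469 CPM (1.92 ± 0.43, adjusted p = 0.000671). The Hep3B difference was 1.12 with the shares of other lines subtracted (adjusted p = 0.029). In HepG2, whose cultures held 43.5 ± 3.02 CPM, the tumours held 48.0 ± 13.7 and no difference was called (adjusted p = 0.922). COL4A5, on the other side of the shared start region, was not called in any of the 4 lines by limma (adjusted p from 0.287 to 0.8), and in HuH7 it was at 2.48 ± 0.53 and 5.89 ± 3.90 CPM. Without the 4 in ovo libraries numbered 3, COL4A5 was called higher in HuH7 (1.35, adjusted p = 4.48e-06) and in PLC/PRF/5 (0.60, adjusted p = 0.0184).

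COL4A1 and COL4A2, whose chains are normally made together, were called in opposite directions in HuH7 by limma. COL4A1 fell from 4.5, 3.80 and 4.46 CPM to 1.03, 1.5, 0.515 and 1.19 CPM (-1.37 ± 0.17, adjusted p = 1.00e-06). COL4A2 was higher, at 0.800, 1.09 and 1.09 CPM in vitro and 5.01, 1.5, 3.43 and 1.45 CPM in ovo (0.85, adjusted p = 0.0298). The COL4A2 call was lost without any 1 of the HuH7 cultures and without in ovo replicate 1 (adjusted p = 0.122) or 3. It was also lost by limma-voom (1.235, adjusted p = 0.0975), with a pseudocount of 5 and with each line alone. edgeR (1.47, adjusted p = 0.0137) and DESeq2 (1.51, adjusted p = 0.00847) made the COL4A2 call. In PLC/PRF/5, the line with the most COL4A2, it was at 296, 235 and 271 CPM in vitro and 304, 159, 470 and 262 CPM in ovo, with overlap and no call (adjusted p = 0.934). COL4A1 in that line was at 23.6 ± 1.38 and 18 ± 4.66 CPM and was not called (adjusted p = 0.111), while it was called lower without the libraries numbered 3 (-0.53, adjusted p = 0.012) and with total counts alone (-0.64, adjusted p = 0.0168).

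The multiplexins differed in spread. COL15A1, a basement membrane collagen known from vessels and muscle, was read in PLC/PRF/5 only and rose there 8.89-fold. The cultures held 43.4, 26.2 and 45.2 CPM and the tumours 327, 237, 311 and 486 CPM (3.11 ± 0.19, adjusted p = 8.20e-12). The interaction had an adjusted p of 5.52e-10. edgeR called it (3.15, adjusted p = 0.00012), and DESeq2 gave 3.04 with an adjusted p of 0.534. Of 10 endothelial markers 4 were tested. In the same tumours 2 rose and 0 fell, against 11.7% and 5.62% of all genes. These counts were the same by limma, edgeR, DESeq2 and limma-voom and at an unadjusted p under 0.05. PECAM1 rose from 0.287 ± 0.285 to 1.54 ± 0.43 CPM (0.99, adjusted p = 0.0141) and CDH5 from 0.0641 ± 0.0555 to 1.77 ± 1.55 CPM (1.24, adjusted p = 0.00165). The summed level of the 10 was 9.23 to 10.5 CPM in vitro and 8.69 to 17.8 CPM in ovo, and KDR and EMCN had 0 reads in all PLC/PRF/5 libraries. Lines with 0 COL15A1 reads also had calls among the 4 tested endothelial markers. By limma HepG2 had 2 called higher and 1 called lower, against 12.6% and 12.4% of all genes. Hep3B had 1 and 0, against 25.3% and 26.7%, and HuH7 had 1 and 1, against 23.9% and 19.5%. The part of such cells in the COL15A1 difference was not tested.

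COL18A1, which carries the fragment endostatin at its end, varied more between tumours than between conditions. HepG2 cultures held 141, 134 and 160 CPM and the tumours 106, 112, 2840 and 354 CPM (1.19 ± 1.06, adjusted p = 0.445). HuH7 cultures held 160, 133 and 142 CPM and the tumours 1227, 345, 5317 and 170 CPM, all above the cultures, without a call (2.44 ± 1.06, adjusted p = 0.0653). In both lines the highest tumour was in ovo replicate 3. Its amplicon, with 72.7% GC, has the highest GC content of the 46 rows. With the GC and length trends removed HuH7 was called (1.89, adjusted p = 0.0439), and without the libraries numbered 3 it was not (1.53, adjusted p = 0.0944). Hep3B cultures held 249, 277 and 300 CPM and the tumours 364, 29.7, 23.7 and 16.6 CPM (-2.55 ± 1.06, adjusted p = 0.0466). In ovo replicate 1 lay above the cultures, and without it the Hep3B difference was -3.54 (adjusted p = 0.00475). That call was lost when any 1 of 20 other libraries was left out, with adjusted p up to 0.125, and by edgeR, DESeq2 and limma-voom. The shares of other lines' genes would alone give 27.5, 55.1, 30.5 and 8.32 CPM in these tumours. The HuH7 level used for them includes the tumour at 5317 CPM. In Hep3B in ovo replicates 2 and 3 they exceed the measured level, so the subtraction left no reads there. With the shares subtracted the difference was -5.19 (adjusted p = 0.00569), and its size is therefore not read.

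**Figure D4:**
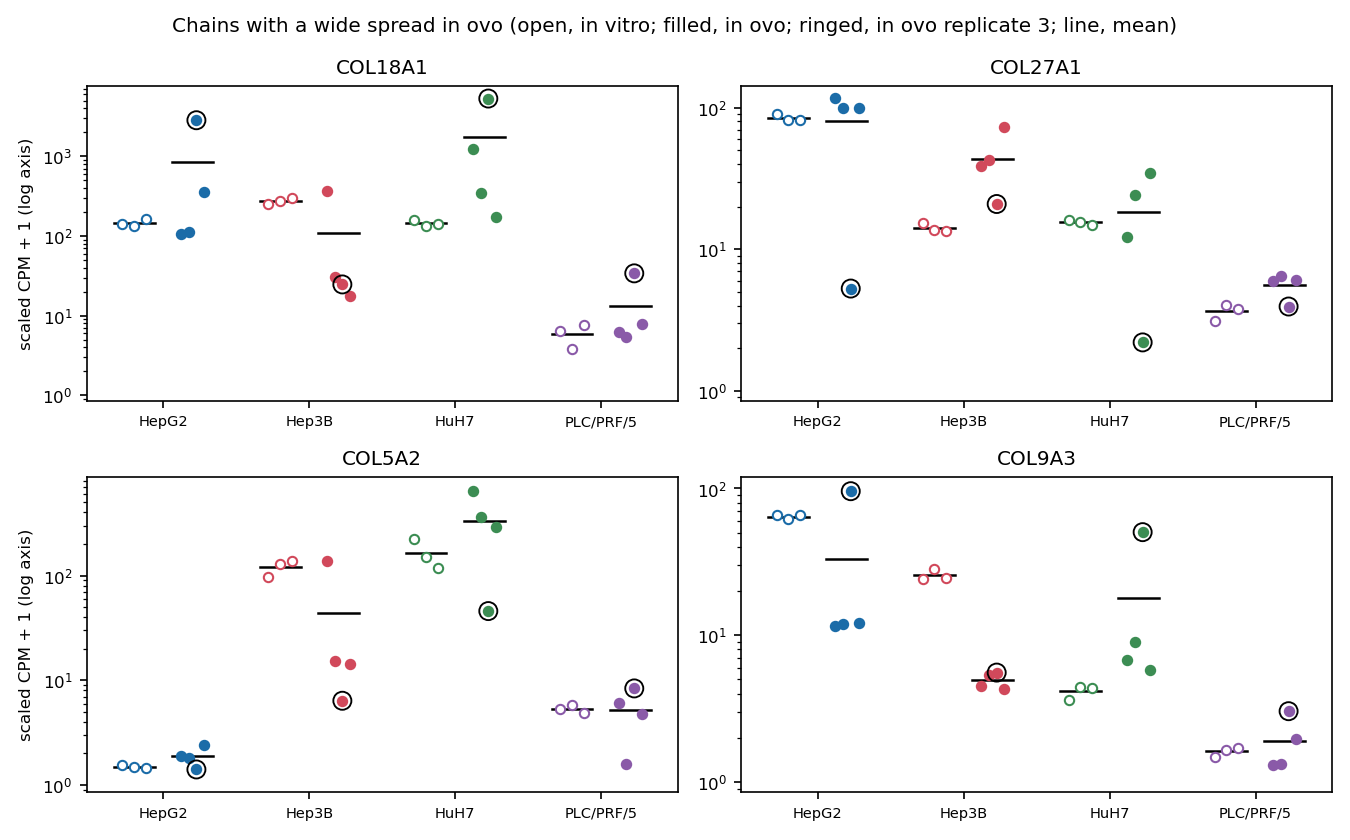
Each point is 1 library, as scaled CPM + 1 on a log axis, for 4 chains with a wide spread in ovo; open points are cultures, filled points tumours, rings mark in ovo replicate 3 and black lines are means. The ringed points are the highest tumours for COL18A1 in HepG2, HuH7 and PLC/PRF/5 and for COL9A3 in all 4 lines, and the lowest for COL27A1 in all 4.

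Fibril-associated chains moved in different directions. COL9A3, a chain of the collagen on cartilage fibres, fell in Hep3B from 23.1, 27.5 and 23.4 CPM to 3.50, 4.36, 4.57 and 3.28 CPM (-2.39 ± 0.60, adjusted p = 0.00209), without overlap. In HepG2 it went from 64.8, 60.5 and 65.1 CPM to 10.5, 11.0, 94.8 and 11.1 CPM (-1.69, adjusted p = 0.0415). HepG2 in ovo replicate 3 stood above the cultures, and without it the difference was -2.44 (adjusted p = 0.000509). Leaving out any 1 of 8 other libraries ended the HepG2 call (adjusted p up to 0.113), and edgeR did not make it (-1.0, adjusted p = 0.305). In HuH7 COL9A3 was called higher, from 2.60, 3.47 and 3.38 CPM to 5.79, 7.94, 49.4 and 4.76 CPM (1.48, adjusted p = 0.0493). That call was lost without any 1 of 22 libraries, and without HuH7 in ovo replicate 3 the difference was 0.77 (adjusted p = 0.244). It was also lost with the shares of other lines subtracted (1.48, adjusted p = 0.0518), with the GC and length trends removed (0.85, adjusted p = 0.185) and by limma-voom (1.54, adjusted p = 0.102). The interaction for COL9A3 had an adjusted p of 0.00222.

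COL12A1, a chain at the surface of type I fibres, fell in PLC/PRF/5. The cultures held 42.0, 42.5 and 37.5 CPM and the tumours 10.9, 12.6, 4.19 and 8.22 CPM, all below (-2.15 ± 0.36, adjusted p = 0.000106). In HuH7 it was at 3.69 ± 0.27 and 4.33 ± 2.71 CPM and was not called (adjusted p = 0.943), while it was called higher without the libraries numbered 3 (0.50, adjusted p = 0.0204). COL14A1, the chain that HuH7 carried in culture, was at 284 ± 25.4 CPM in vitro and 211 ± 85 in ovo there and was not called (adjusted p = 0.256), and with the GC and length trends removed it was called lower (-1.05, adjusted p = 0.0369). In Hep3B it was called higher, at 0.201 ± 0.176 and 2.09 ± 2.18 CPM (1.12, adjusted p = 0.0148), and with the shares of other lines subtracted the difference was -0.25 (adjusted p = 0.368). Those shares would alone give 2.38, 5.57, 3.34 and 0.546 CPM in the Hep3B tumours, where 2.225, 5.13, 0.537 and 0.469 CPM were measured. COL22A1, a chain of tissue junctions, rose in HuH7 from 0.420 ± 0.088 to 8.03 ± 3.30 CPM (2.59, adjusted p = 2.60e-10). COL16A1 was higher in HuH7, at 2.73 ± 1.05 and 12 ± 8.81 CPM (1.61, adjusted p = 0.0105), a call lost with the GC and length trends removed (0.77, adjusted p = 0.0946).

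Of the type VI chains, COL6A1 was called higher in 3 lines and COL6A2 in 2. COL6A1 rose in HuH7 from 64.2, 57.0 and 55.6 CPM to 326, 292, 242 and 228 CPM (2.18 ± 0.30, adjusted p = 2.92e-06). In Hep3B it rose from 0.913, 0.813 and 1.10 CPM to 8.37, 18.2, 9.68 and 3.05 CPM (2.27 ± 0.30, adjusted p = 1.14e-06). The shares of other lines' genes would alone give 4.54, 8.74, 4.78 and 1.40 CPM in these Hep3B tumours, and with them subtracted the difference was 1.47 (adjusted p = 0.000131). PLC/PRF/5 cultures held 83.5, 75.8 and 80.2 CPM and the tumours 145, 128, 165 and 144 CPM (0.85, adjusted p = 0.0486), a call that leaving out any 1 of 22 libraries ended. The PLC/PRF/5 call was also lost with the GC and length trends removed (0.48, adjusted p = 0.312) and without the libraries numbered 3 (0.79, adjusted p = 0.0681). In HepG2 COL6A1 was at 103 ± 8.17 and 157 ± 41.5 CPM, with no overlap and no call (adjusted p = 0.164).

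COL6A2, a partner chain of COL6A1, rose in HuH7 from 2.5, 3.69 and 3.16 CPM to 22.2, 18.9, 23 and 15.3 CPM (2.33 ± 0.17, adjusted p = 1.33e-10). It had 0 reads in all 7 HepG2 libraries. In PLC/PRF/5 it had 2 reads in the cultures and 23 in the tumours, a ratio of 8.45 (95% counting interval 2.09 to 73.9; log2 difference 0.56, adjusted p = 0.0244). The PLC/PRF/5 call was lost without any 1 of its cultures or in ovo replicate 3. COL6A3, another usual chain of the molecule, did not pass the filter and reached at most 1.34 CPM.

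**Figure D5:**
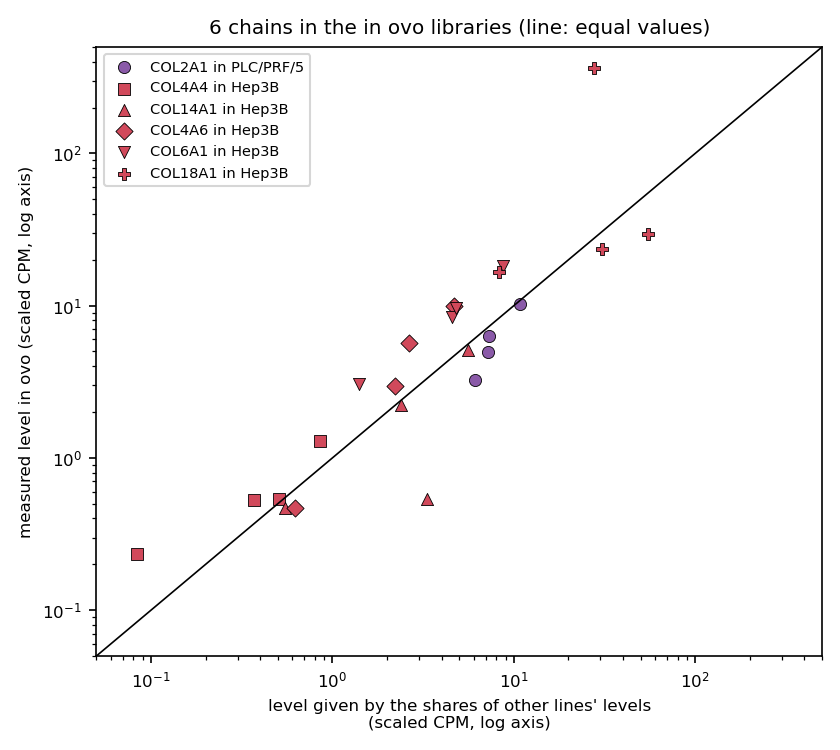
Each point is 1 in ovo library, with the level that the measured shares of other lines' genes alone would give on the horizontal axis and the measured level on the vertical axis, both as scaled CPM on log axes; the line marks equal values. COL2A1 in PLC/PRF/5 lies on or below the line in all 4 libraries, and COL6A1 in Hep3B lies above it in all 4.

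The remaining classes held single changes. COL7A1, which anchors the skin's basement membrane to the tissue below, was highest in PLC/PRF/5, at 126, 108 and 116 CPM in vitro and 190, 146, 324 and 140 CPM in ovo, without overlap and without a call (adjusted p = 0.213). In Hep3B it went from 1.31, 1.35 and 0.994 CPM to 3.28, 2.82, 3.49 and 3.98 CPM (0.98, adjusted p = 0.0273), a call lost without any 1 of the Hep3B cultures or in ovo replicate 3 or 4. COL8A1, a short-chain collagen, rose in PLC/PRF/5 from 1.55, 0.571 and 2.10 CPM to 9.05, 1.75, 4.19 and 6.28 CPM (1.29, adjusted p = 0.00066), with overlap, and edgeR and DESeq2 did not call it. COL8A2, its partner, rose in HuH7 from 0.950 ± 0.384 to 4.25 ± 1.14 CPM (1.42, adjusted p = 2.34e-05). COL17A1, a membrane collagen of epithelial anchoring plaques, was at 29.3 ± 1.57 and 40.2 ± 10.4 CPM in PLC/PRF/5 and was not called (adjusted p = 0.105).

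COL26A1 rose in 3 lines. HepG2 cultures held 9.81, 11.8 and 11.6 CPM and the tumours 32.4, 45.0, 164 and 49.9 CPM (2.32 ± 0.42, adjusted p = 0.000188). Hep3B cultures held 8.61, 8.13 and 9.39 CPM and the tumours 38.2, 30.2, 30.1 and 12.7 CPM (1.47, adjusted p = 0.00583). HuH7 cultures held 4.20, 4.23 and 3.70 CPM and the tumours 9.13, 6.33, 22.8 and 6.13 CPM (1.07, adjusted p = 0.0436). In each of the 3 lines every tumour lay above every culture. With the GC and length trends removed the HepG2 difference stayed called (1.99, adjusted p = 3.23e-05), and those of Hep3B (0.51, adjusted p = 0.204) and HuH7 (0.30, adjusted p = 0.477) did not. The HuH7 call was also lost without any 1 of 15 libraries, with an adjusted p of 0.189 without HuH7 in ovo replicate 3. COL4A3BP, matched by spelling alone, was called higher in Hep3B, from 5.04 ± 0.64 to 8.83 ± 1.96 CPM (0.68, adjusted p = 0.0124).

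The 16 chains below the filter were COL3A1, COL5A3, COL6A3, COL6A5, COL6A6, COL9A1, COL9A2, COL10A1, COL13A1, COL19A1, COL20A1, COL21A1, COL23A1, COL24A1, COL25A1 and COL28A1. COL23A1 was at 0 in every library. Apart from COL5A3, COL24A1 and COL6A3, the highest of them was COL19A1 with 1.22 CPM in 1 library.

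Of genes for the modification and folding of collagen chains, 20 were tested. In HepG2 7 fell, against 12.4% of all genes called lower, while Hep3B had 6 that rose and 8 that fell, against 25.3% and 26.7%. HuH7 had 1 and 5, against 23.9% and 19.5%, and PLC/PRF/5 had 3 and 2, against 11.7% and 5.62%. In HepG2 limma, edgeR, DESeq2 and limma-voom each called 0 higher, as did an unadjusted p under 0.05. The list's median log2 difference was -0.62, -0.02, -0.25 and 0.08 in that order of lines, beside 0, -0.03, 0.02 and 0.07 for all genes. The summed level of the 20 was 11480 to 12860 CPM in vitro and 8794 to 18260 in ovo in HepG2. In Hep3B it was 7072 to 7530 and 13140 to 40580 CPM. It was 5853 to 6073 and 4332 to 11490 CPM in HuH7, and 3675 to 4491 and 4126 to 7490 CPM in PLC/PRF/5. PLOD3, which hydroxylates lysines of the chains, fell in HepG2 from 554 ± 24.7 to 278 ± 34.7 CPM (-1.0, adjusted p = 1.27e-05) and in HuH7 from 538 ± 27.8 to 319 ± 44.9 CPM (-0.76, adjusted p = 0.000244). P3H2, a prolyl hydroxylase, fell in Hep3B from 9.45 ± 0.83 to 0.264 ± 0.216 CPM (-3.06, adjusted p = 1.48e-09). COLGALT2, which adds galactose to hydroxylysine, fell in HepG2 from 15.0 ± 1.54 to 1.49 ± 0.83 CPM (-2.75, adjusted p = 4.87e-10). TMEM38B, an ion channel of the endoplasmic reticulum, fell in HuH7 from 3.28 ± 0.37 to 0.415 ± 0.695 CPM (-1.70, adjusted p = 0.000367).

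Of genes of propeptide removal and cross-linking, 11 were tested. In HepG2 2 rose and 4 fell, against 12.6% and 12.4% of all genes, and in Hep3B 5 fell, against 26.7%. HuH7 had 3 that rose and 3 that fell, against 23.9% and 19.5%, and PLC/PRF/5 had 3 that rose, against 11.7%. The list's medians were 0, -0.59, 0.07 and 0.07. The count of 0 higher in Hep3B was 0 at an unadjusted p under 0.05 and by DESeq2, and 1 by edgeR and by limma-voom. The count of 0 lower in PLC/PRF/5 was 0 at an unadjusted p and by the 3 other tools. LOXL4, an oxidase that starts cross-links, fell in HepG2 from 29.8 ± 1.49 to 1.30 ± 0.69 CPM (-3.80, adjusted p = 1.54e-07) and in Hep3B from 138 ± 7.27 to 1.71 ± 0.77 CPM (-5.73, adjusted p = 8.01e-11). In HuH7 it was at 46.2 ± 2.99 and 59.4 ± 39.7 CPM without a call. ADAMTS3, which trims the front end of procollagen, fell in HuH7 from 4.25 ± 0.45 to 0.903 ± 0.517 CPM (-1.50, adjusted p = 1.89e-07), and ADAMTS2 rose in HepG2 from 10.3 ± 1.44 to 18.8 ± 2.82 CPM (0.80, adjusted p = 0.00106). PCOLCE2, a helper of the enzyme that trims the rear end, fell in HuH7 from 22.3 ± 1.10 to 4.12 ± 1.42 CPM (-2.23, adjusted p = 1.29e-08). Of the other oxidases, chosen after their values were seen, LOXL2 rose in HuH7 from 13.5 ± 1.46 to 120 ± 31.0 CPM (3.02, adjusted p = 9.54e-07) and in PLC/PRF/5 from 93.1 ± 15.0 to 375 ± 154 CPM (1.88, adjusted p = 0.00088), and fell in HepG2 from 12.7 ± 3.57 to 2.03 ± 1.07 CPM (-2.22, adjusted p = 8.87e-05).

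Of collagen receptors, 8 were tested, and 4 fell in HepG2, against 12.4% of all genes. The 3 that fell and 2 that rose in Hep3B stand against 26.7% and 25.3% of all genes, and the 2 and 1 in HuH7 against 19.5% and 23.9%, so these counts are near those shares. The list's medians were -1.46, -0.42, 0.02 and 0.09. In PLC/PRF/5 limma called 0; at an unadjusted p under 0.05 there were 2 higher and 2 lower, edgeR and limma-voom called 1 higher each, and DESeq2 called 1 higher and 1 lower. In HepG2 the count of 0 higher was 1 at an unadjusted p and by edgeR and DESeq2, and 0 by limma-voom. ITGB1, the beta chain shared by all collagen-binding integrins, fell in HepG2 from 261 ± 21.6 to 64.3 ± 37.6 CPM (-2.35, adjusted p = 0.0131). It fell in Hep3B from 420 ± 17.9 to 44.6 ± 29.3 CPM (-3.56, adjusted p = 0.000165) and in HuH7 from 241 ± 9.26 to 81.5 ± 62.2 CPM (-2.07, adjusted p = 0.0183). ITGA2, the alpha chain that binds type I fibres, fell in HepG2 from 190 ± 8.70 to 23.9 ± 3.88 CPM (-2.95, adjusted p = 4.56e-09) and in PLC/PRF/5 was at 38.5 ± 1.19 and 69.9 ± 26.2 CPM without a call (adjusted p = 0.0508). ITGA1, the alpha chain that favours type IV, fell in HepG2 from 14.8 ± 1.34 to 4.38 ± 3.05 CPM (-1.86, adjusted p = 0.0284). GP6, the collagen receptor of platelets, rose in HuH7 from 0.0362 ± 0.0627 to 1.11 ± 0.35 CPM (1.01, adjusted p = 0.00763).

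Of 6 collagenases and gelatinases only MMP2 and MMP14 were tested. By limma both fell in HepG2, against 12.4% of all genes called lower, and 1 fell in Hep3B, against 26.7%. Neither was called in HuH7 or PLC/PRF/5. MMP2 fell in HepG2 from 6.77 ± 0.68 to 0.877 ± 0.642 CPM (-2.10, adjusted p = 1.07e-10), and MMP14 fell in Hep3B from 34.8 ± 3.16 to 5.24 ± 5.16 CPM (-2.81, adjusted p = 5.29e-06). MMP14 in HuH7 was at 87.0 ± 5.13 and 66.1 ± 28.4 CPM without a call (adjusted p = 0.289).

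Markers of fibroblasts, stellate cells and mural cells, the usual sources of collagen in tissue, were read alongside. Of 12 markers, 10 were tested. The summed level, most of it FBLN1, was 1150 to 1263 CPM in vitro and 765 to 970 CPM in ovo in HepG2, and 2154 to 2329 and 2120 to 4646 CPM in Hep3B. It was 1417 to 1491 and 1902 to 2619 CPM in HuH7, and 1537 to 1837 and 983 to 1793 CPM in PLC/PRF/5. By limma 4 of the 10 rose in HuH7 and 1 fell, against 23.9% and 19.5% of all genes. HepG2 had 2 that rose and 2 that fell, against 12.6% and 12.4%. Hep3B had 3 and 3, against 25.3% and 26.7%, and PLC/PRF/5 had 0 and 4, against 11.7% and 5.62%. That count of 0 was 1 at an unadjusted p under 0.05 and by edgeR and DESeq2, and 0 by limma-voom. In HuH7 FBN1 went from 174 ± 1.59 to 766 ± 97.9 CPM and PDGFRA from 155 ± 6.34 to 590 ± 153 CPM. LUM fell there from 198 ± 4.31 to 26.0 ± 13.1 CPM. THY1 and FAP had 0 reads in all HuH7 libraries and POSTN as well, and DCN reached at most 0.0851 CPM. The part of such cells, or of chick RNA read by the human amplicons, in the collagen differences was not tested.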

How the data were processed

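DriverMap amplicon libraries of 12 cultures and 16 tumours from 4 lines were used, made from 500 ng total RNA per the labels' protocols. The deposited table holds normalised signal per gene, made by the authors so that each library sums to 500000; the submitters' processing notes name hg38, and no aligner or counter is named (not given in the sources used here). Multiplying by 2 gave CPM, and whole reads were recovered for at least 99.9684% of values within 0.01 (largest departure 0.104). Since the table holds no raw counts, limma on log values was the main test, and count tests ran on the recovered reads as alternatives (edgeR called 3, 10, 15 and 5 chains higher in HepG2, Hep3B, HuH7 and PLC/PRF/5). 1 damaged cell (KRT18) was filled to complete its library's total, and 7 repeated symbols were renamed.

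Genes passing edgeR's filter (10 reads) were tested, 13100 of 18961, with limma-trend on log2(CPM + 1) after TMM scaling. The fit had 8 groups and 20 residual degrees of freedom, and p-values were Benjamini-Hochberg adjusted over all genes with a threshold of 0.05. Tools were R 4.3.3, limma 3.58.1, edgeR 4.0.16, DESeq2 1.42.0 and Python 3.11.15, and the fit was tested on simulated data. Alternatives covered scaling, filter, pseudocount, edgeR, DESeq2 and limma-voom on recovered reads, each line alone, a replicate block, a 2-fold minimum, GC and length trends, and each library left out.

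Genes named were the type I, II, III, V, VI, VII, XII, XVIII and XXVII chains and COL4A1 and COL4A2 fixed in the design. To these were added, per line, the 3 highest and 3 lowest called chains with a mean of at least 1 CPM, chains called alike in 3 lines or in opposite directions, and up to 4 called genes per pathway list; the other chains are given for completeness. Members and lists were chosen with earlier results of these data known.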

Additional observations from a re-analysis of the deposited data

Results flagged for a closer look

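The change from culture to tumour differed among the 4 lines for 17 of the 28 tested chains by the line by condition interaction in limma, against 41.7% of all genes. Of the 17, 15 are named chains, and since these were partly chosen by their calls nothing is read from that count. The adjusted p was 2.38e-08 for COL1A1, 0.00262 for COL1A2, 3.88e-06 for COL2A1 and 0.00488 for COL5A1. Among type IV chains it was 0.000395 for COL4A1, 1.03e-08 for COL4A3, 9.79e-09 for COL4A4 and 0.00356 for COL4A6. It was 5.52e-10 for COL15A1, 0.045 for COL18A1, 0.00394 for COL12A1, 0.00222 for COL9A3, 0.0018 for COL6A1, 2.4e-08 for COL6A2 and 0.00803 for COL8A1.

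In 4 of 60 in ovo groups of named chains, 1 tumour lay far from the other 3 by Dixon's ratio, and chance gives about 1 in 20 groups. In all 4 it was in ovo replicate 3. COL27A1 was at 4.28 CPM in that HepG2 tumour against 97.8 to 116 CPM in the others (ratio 0.946). It was at 2.95 CPM against 4.93 to 5.43 CPM in PLC/PRF/5 (ratio 0.833). COL9A3 was at 94.8 CPM against 10.5 to 11.2 CPM in HepG2 (ratio 0.974). COL7A1 was at 3.95 CPM against 0.511 to 0.772 CPM in HuH7 (ratio 0.866).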

How the results depend on the processing

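Of 36 called changes of named chains, 15 stayed called under every alternative that gave a value and with every library left out, and 34 kept their direction. The reversals were COL4A4 in Hep3B with GC and length trends removed (-0.21) and COL2A1 in PLC/PRF/5 with other lines' shares subtracted (-0.14). HepG2 chains called lower numbered 1 instead of 2 with DESeq2 size factors, a pseudocount of 0.25 or 5, edgeR, DESeq2 and each line alone. Hep3B chains called higher numbered 3 instead of 8 with total counts, 5 with a pseudocount of 5 and 5 with a 2-fold minimum. Those called lower numbered 5 instead of 3 with total counts, a pseudocount of 0.25 and GC and length trends removed. HuH7 chains called lower numbered 1 instead of 2 with a stricter filter, edgeR, DESeq2, each line alone and a 2-fold minimum, and 4 with the trends removed. PLC/PRF/5 chains called higher numbered 4 instead of 7 with total counts, a pseudocount of 0.25 and a 2-fold minimum, and 3 with the trends removed. Those called lower numbered 1 instead of 2 with edgeR, DESeq2 and a 2-fold minimum. For the mean of lines, 7 instead of 16 were higher with a 2-fold minimum and 10 with the trends removed, and 1 instead of 3 lower with edgeR and 0 with a 2-fold minimum. The 2-fold minimum removes calls by its construction; otherwise the cause was not tested. Removing the trends shifts chains with 0 reads too (COL15A1 in Hep3B, -0.88, adjusted p = 0.0147), so its counts, and the calls it ends at low reads, bear no reading either way. With 1 library left out, HepG2 counts ran from 2 to 4 higher and 1 to 2 lower, Hep3B from 4 to 9 and 2 to 4, HuH7 from 9 to 15 and 2 to 3, and PLC/PRF/5 from 3 to 7 and 2 to 3. HepG2 lower was 1 without any HepG2 culture, HepG2 in ovo replicate 1, 2 or 4, or Hep3B in ovo replicate 2 or 3. Total counts in place of TMM moved the share of calls that were higher, over all genes, from 50.3% to 36.6% in HepG2, 48.6% to 15.0% in Hep3B, 55.1% to 45.4% in HuH7 and 67.5% to 51.5% in PLC/PRF/5, with medians of -0.18, -0.74, -0.13 and -0.07. Deviations of same-numbered cultures and tumours of a line correlated from -0.0967 to 0.457, with 0.44 for HepG2 replicate 1 and 0.457 for PLC/PRF/5 replicate 2. These mixed values do not settle whether the numbers pair. With the replicate block all 36 changes stayed called, with 15 chains higher in HuH7 and 8 in Hep3B, and COL18A1 in HuH7 was called (2.76, adjusted p = 0.0185). Between lines, tumours numbered 3 deviated together (correlations 0.117 to 0.862, against -0.198 to 0.619 for the other numbers). The mean of lines and the interaction treat these tumours as independent. Without them 17 chains were higher and 4 lower in the mean of lines and 24 had an interaction. The share of all genes called without them is not given here, so nothing about collagens is read from these counts. Chains near the 3-read floor, 0.251 to 0.806 CPM after TMM scaling, cannot be told from 0 at this depth.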
